A study of Drosophila melanogaster with 4 samples.

Results

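ChIP-seq against Polycomb was done on wild-type Oregon-R embryos of Drosophila melanogaster, 14 to 16 h old, and the regions described here are those on chromosome arm 3R that lie outside its Hox gene complexes. A region was included when it lay on 3R and did not overlap the window from 2480000 to 2880000, which holds the Antennapedia complex, or the window from 12480000 to 12820000, which holds the bithorax complex (FlyBase r5). The 2 Pc ChIP libraries, replicates 1 and 2, each had a deposited list of enriched regions of its own. In replicate 1, 278 of 1189 regions met the rule, and in replicate 2, 304 of 1405. All libraries came from the same wild-type strain and stage, as did 2 input libraries of genomic DNA that had no values of their own here. Formaldehyde was at 1.8% for the ChIP and input libraries alike. The embryos were whole, so the lists mix all cell types. With 1 condition and 2 libraries there were no groups to test, and all comparisons below are descriptions of these 2 lists. Read counts were not given, so the depth behind each region was unknown.

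Polycomb carries the chromodomain of Polycomb repressive complex 1. It binds the methylated histone H3 tail that Polycomb repressive complex 2 makes, and together the complexes keep developmental regulators silent in cells where they should stay off. In flies they are recruited at Polycomb response elements, short DNA elements from which the mark and the complex spread over broad domains. The Hox genes are the classic targets. The same arm also carries other developmental regulators, among them hedgehog (hh, a secreted signal), homothorax (hth, a homeodomain partner of Hox proteins), seven-up (svp, a nuclear receptor), odd paired (opa, a zinc finger pair-rule factor), tailless (tll, a terminal gap gene) and the NK homeobox cluster of mesoderm regulators with tin, bap, lbe, lbl, C15 and slou. A gene table of Release 6 places all of these on 3R. Coordinates were not converted between builds, so blocks are given below by position and none is assigned to a gene, and values of the NK cluster could not be singled out.

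Without its Hox complexes, 3R was covered by Polycomb to a share within the range of the other large arms. The regions outside the windows summed to 1.88 Mb in both libraries and covered 6.92% of the 27.2 Mb of arm outside the windows in each. The whole arm, windows included, was covered to 9.19% in replicate 1 and 9.14% in replicate 2. Among the other large arms the covered share was 7.33% and 7.23% for 2L, 7.15% and 6.85% for X, 5.76% and 5.92% for 2R, and 5.39% and 5.68% for 3L. In both libraries the whole arm lay above the range of these 4 arms. Each arm is 1 unit per list, so no test was made of these differences.

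**Figure D1:**
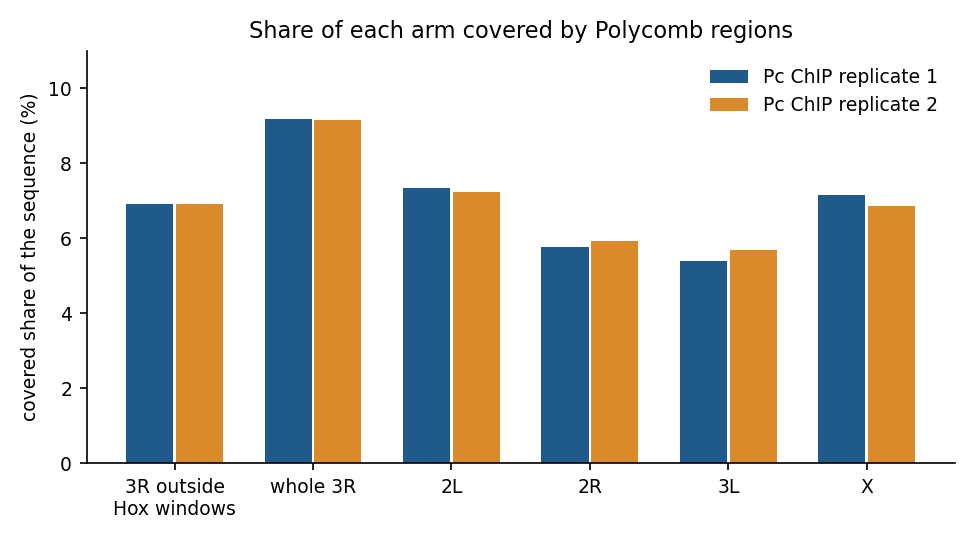
Share of each sequence covered by Polycomb regions (vertical axis, %), with 1 bar per Pc ChIP library. 3R outside the Hox windows stands at 6.92% in both libraries, between the lowest (3L) and the highest (2L) of the other arms, while whole 3R stands at 9.19% and 9.14%.

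The windows held a small share of the 3R regions and a larger share of the covered bases. The windows span 740.0 kb together. They held 22 regions in replicate 1 and 29 in replicate 2, which were 7.33% and 8.71% of the 3R regions and 26.7% and 26.3% of the Polycomb-covered bases of the arm. Per Mb there were 29.7 and 39.2 regions inside, against 10.2 and 11.2 outside. Outside the windows the mean region measured 6763 bases in replicate 1 and 6186 bases in replicate 2, against 31141 and 23126 bases inside. The medians lay lower, at 2029 and 1961.5 bases outside and 9083 and 4871 bases inside. Of the regions inside, 11 of 22 and 13 of 29 were 10 kb or wider. The median score was 0.516 and 0.566 outside, against 0.837 and 0.659 inside. The windows were drawn around the complexes, so these differences describe the choice.

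No region crossed an edge of a window in either library. The members nearest to the first window lay to its right, at 7.92 kb in replicate 1 (1702 bases wide, score 0.410) and at 9.71 kb in replicate 2 (1397 bases, score 0.536). To its left, 404.0 kb and 393.6 kb had no region. At the second window the nearest member lay to its left, at 19.6 kb in replicate 1 (4.59 kb wide, score 0.719) and at 18.0 kb in replicate 2 (7.53 kb, score 0.693). The last regions inside the second window, by contrast, were the widest of the arm, with 227.2 kb and a score of 1.82 in replicate 1 and 189.4 kb and 1.62 in replicate 2.

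Most regions outside the windows were narrow, and most of the covered sequence was in a few broad ones. The median width was 2029 bases in replicate 1, with quartiles of 1502 and 5341, and 1961.5 bases in replicate 2, with quartiles of 1471 and 4489. The narrowest regions measured 1301 and 1307 bases, and the widest 79.2 kb and 74.7 kb. Regions under 2 kb numbered 137 and 156, which were 49.3% and 51.3% of the regions and 11.3% and 12.7% of their bases. Regions of 10 kb or more numbered 47 and 48, which were 16.9% and 15.8% of the regions and 68.0% and 66.9% of their bases. A small set of broad regions thus carried the coverage: 23 regions in replicate 1 and 27 in replicate 2 together held at least 50% of the covered bases.

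Scores were higher in wider regions. The score is the authors' own value per region, a positive decimal on a scale that they did not state in the labels or headers. Regions under 2 kb had a median score of 0.455 in replicate 1 and 0.516 in replicate 2. In the middle class, up to 10 kb, the medians were 0.581 and 0.626, and regions of 10 kb or more had medians of 1.25 and 1.17. Across the regions of each list, Spearman's rho between width and score was 0.80 and 0.73. The points share a library and a caller, and regions are not independent replicates. Regions with a score of at least 1 numbered 45 in replicate 1 and 38 in replicate 2, of which 36 and 30 were 10 kb or wider.

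A few regions departed from this relation, and only the last region of the arm did so in both libraries. Only 1 region under 10 kb in replicate 1 and 3 in replicate 2 scored above the median of the broad regions of the same list. The highest of these was the last region of the arm, from 27893573 to 27899780 in replicate 1 (6.21 kb, score 3.05) and from 27893706 to 27899743 in replicate 2 (6.04 kb, score 2.85). It ended 5.27 kb and 5.31 kb before the end of the assembled arm, so it was a terminal region. The next was from 22701999 to 22708186 in replicate 2 (6.19 kb, score 1.59). Its replicate 1 counterpart, from 22702355 to 22708130, measured 5.78 kb and scored 1.07. The last was from 14192970 to 14202960 in replicate 2 (9.99 kb, score 1.20), and its replicate 1 counterpart, from 14192363 to 14203012, scored 1.17 and passed 10 kb. Among broad regions the lowest scores were 0.567, from 6474040 to 6484826 in replicate 1, and 0.594, from 9769859 to 9783252 in replicate 2. These regions were picked out after their values were seen.

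**Figure D2:**
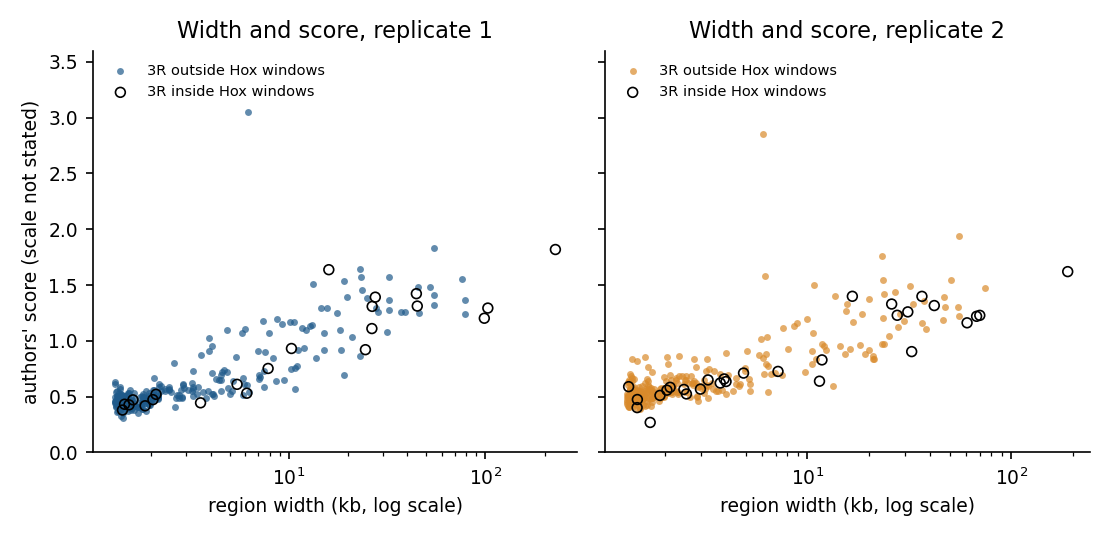
Width (horizontal axis, kb, log scale) and authors' score (vertical axis) of each 3R region, replicate 1 on the left and replicate 2 on the right. Filled points are regions outside the Hox windows and open circles are regions inside; the isolated point with scores of 3.05 and 2.85 at about 6 kb is the last region of the arm.

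Apart from that terminal region, broad regions had the highest replicate 1 scores of those found in both lists. By rule the 10 highest are named, the terminal region being the first. The second ran from 647472 to 702049, measured 54.6 kb and scored 1.83 in replicate 1 and 1.94 in replicate 2. The third, from 8881183 to 8904286, measured 23.1 kb and scored 1.64 and 1.55. The fifth, from 20900396 to 20923580, measured 23.2 kb, scored 1.57 and 1.76 and had nearly the same borders in replicate 2, from 20900405 to 20923653. Their presence in both lists and their high replicate 1 scores were set by the choice. Replicate 2 placed these 3 regions alike and also scored them far above its median. The other 6, in falling order of score from 17313490 to 17345934, from 17233269 to 17309787, from 7121579 to 7140715, from 6484834 to 6498114, from 3990515 to 4043111 and from 26727313 to 26772641, lay in broader blocks described next, and their scores ran from 1.48 to 1.58 in replicate 1 and from 1.31 to 1.49 in replicate 2. Replicate 2 covered between 84.6% and 99.96% of the bases of each of the 10.

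Joining regions with under 5 kb between them turned the lists into blocks. Replicate 1 had 147 blocks and replicate 2 had 183, of which 99 and 133 were a single region. The 48 and 50 blocks of more than 1 region held 74.8% and 72.9% of the covered bases. Blocks of at least 50 kb numbered 10 and 12. On 2L there were 10 and 7 blocks of that size, on 2R 9 and 7, on 3L 5 and 5, and on X 13 and 10. Taking both lists together gave 220 blocks, of which 95 held regions of both libraries, 48 held only replicate 1 regions and 77 only replicate 2 regions.

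The 95 blocks with regions of both libraries held nearly all of the Polycomb-covered sequence, 95.9% of the bases in replicate 1 and 93.0% in replicate 2. Their median span was 11.2 kb, against 1.48 kb for blocks of replicate 1 only and 1.47 kb for blocks of replicate 2 only. A shared block holds at least 1 region of each library, while 48 of 48 and 74 of 77 single-list blocks were 1 region. Part of the difference in span and covered bases is therefore built in. Of the 56 blocks spanning at least 10 kb, 55 held regions of both libraries, although joining places regions in 1 block without an overlap, which was the case in 11 of the 95. The 12 widest blocks alone held 52.6% and 51.5% of the covered bases.

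With both lists joined, the widest block outside the Hox complexes ran from 17201708 to 17413210 and spanned 211.5 kb, as it did in replicate 1 alone. It consisted of 9 regions in replicate 1 and 6 in replicate 2, which covered 91.8% and 86.9% of it. Its main body was 4 broad regions in each library. The widest of them ran from 17233269 to 17309787 in replicate 1 (76.5 kb, score 1.55) and from 17233198 to 17307914 in replicate 2 (74.7 kb, score 1.48). The neighbour with the highest score ran from 17313490 to 17345934 in replicate 1 (32.4 kb, score 1.58) and from 17313472 to 17345391 in replicate 2 (31.9 kb, score 1.49). In replicate 2 alone the block fell into separate pieces, because 2 gaps between its regions reached 5 kb or more, the larger of them 6637 bases. Its widest pieces there spanned 105.1 kb and 84.8 kb, so the widest block of replicate 2 alone was another one, from 6344101 to 6500119 (156.0 kb). The Jaccard index, the bases covered in both libraries as a share of those covered in either, was 92.3% in the block from 17201708 to 17413210.

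That block, from 6338688 to 6500693 with both lists joined (162.0 kb), had another build. It was divided into 21 regions in replicate 1 and 18 in replicate 2, with median widths of 4.42 kb and 3.91 kb, and the lists covered 83.6% and 85.1% of it. Its scores were uneven. They reached 1.51 at the right end, from 6484834 to 6498114 in replicate 1, and 1.39 in the region from 6429935 to 6454796, while the lowest was 0.421. In replicate 2 the same stretches held regions from 6477307 to 6497361 (score 1.37) and from 6423234 to 6456408 (score 1.33), and the lowest score was 0.419. Both libraries thus showed a pair of high-scoring stretches within a long, broken domain. The Jaccard index was 78.7%, lower than the 92.3% above.

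A further pair of blocks exceeded 100 kb. One ran from 3954901 to 4057268 (102.4 kb) and was covered to 86.0% in replicate 1 and 87.2% in replicate 2, with its highest scores, 1.48 and 1.39, in a region of 52.6 kb and 46.9 kb. The other ran from 9683247 to 9784871 (101.6 kb) and was covered to 95.7% and 92.8%. Its widest region, 79.2 kb in replicate 1, was the widest on the arm outside the windows. Replicate 2 divided the same stretch, and its widest region there measured 50.8 kb with a score of 1.55, against 1.36 for the undivided region. The block from 25331216 to 25416837 (85.6 kb) was covered to 99.96% in replicate 1 and 96.5% in replicate 2, again with a region of 78.5 kb in replicate 1 that was divided in replicate 2, where the widest measured 55.6 kb. The covered sequence was therefore closely shared while the cutting into regions differed.

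The remaining 7 of the 12 widest blocks spanned 49.6 to 72.7 kb and are given from left to right. Those in the left part of the arm ran from 647472 to 714090 (66.6 kb), from 7069812 to 7142515 (72.7 kb), from 11809476 to 11867154 (57.7 kb) and from 12200944 to 12258071 (57.1 kb). Those in the right part ran from 24370378 to 24425494 (55.1 kb), from 26570788 to 26620368 (49.6 kb) and from 26720135 to 26772641 (52.5 kb). The block at 24370378 was a single region in each library, with scores of 1.32 and 1.30 and a Jaccard index of 99.1%, the highest of the 12. The block at 26570788 had the lowest, 77.6%, with a broad core of 32.2 kb in replicate 1 and 27.9 kb in replicate 2 and narrow regions around it.

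Polycomb was unevenly spread along the arm in both libraries. In steps of 2 Mb, with the Hox windows left out, the stretch from 6 to 8 Mb was covered most, to 14.2% in replicate 1 and 14.4% in replicate 2. It was followed by 12 to 14 Mb, the step that contains the bithorax window, with 12.6% and 11.2%, and by 16 to 18 Mb with 10.6% and 10.1%. The widest block from 12 to 14 Mb, from 12200944 to 12258071, lay apart from that window, which starts at 12480000. The stretch from 22 to 24 Mb was covered least, to 0.587% and 1.07%, with 4 and 10 regions. Across the 14 steps the covered shares of the libraries had a Spearman's rho of 0.96 and differed by at most 1.41 percentage points. The steps are pieces of 1 arm read by the same libraries, and rho is a description.

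Gaps between neighbouring regions ran over a wide range. The median gap to the next region was 6.43 kb in replicate 1, with quartiles of 1.29 kb and 66.5 kb, and 9.10 kb in replicate 2, with quartiles of 1.57 kb and 92.0 kb. Gaps under 5 kb made up 47.6% and 40.2% of all gaps, gaps under 100 kb, these included, 81.8% and 78.7%, and gaps of 100 kb or more numbered 50 and 64. The nearest neighbour of a region lay at a median distance of 2.00 kb and 3.35 kb. On the other large arms that median ran from 1.05 kb (2L) to 3.43 kb (2R) in replicate 1 and from 1.40 kb (2L) to 4.61 kb (2R) in replicate 2, so 3R outside the windows lay within their range.

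**Figure D3:**
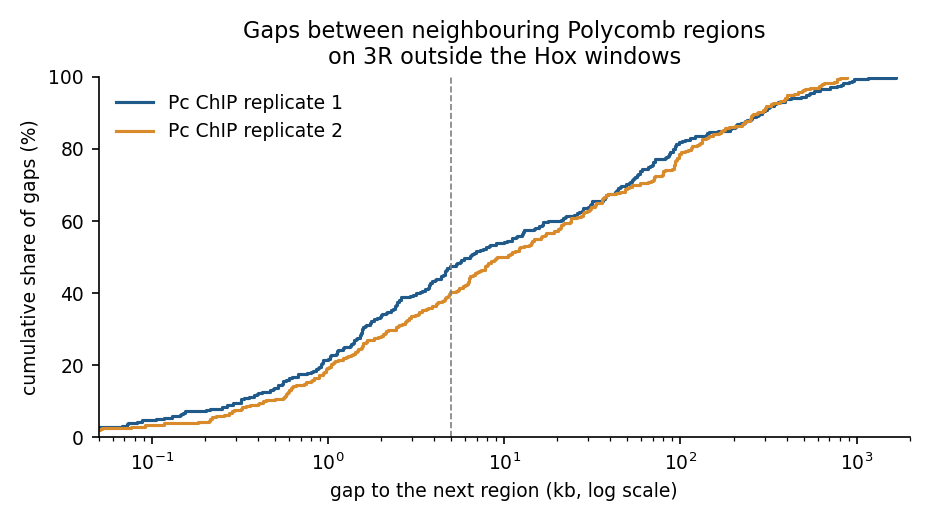
Cumulative share of gaps (vertical axis, %) up to a given length (horizontal axis, kb, log scale) between neighbouring regions on 3R outside the Hox windows, 1 line per Pc ChIP library. The dashed line marks 5 kb, the joining distance, below which 47.6% of the gaps in replicate 1 and 40.2% in replicate 2 lie.

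Long stretches of the arm held no Polycomb region in either library. The 3 longest ran from 21020697 to 21825052 (804.4 kb), from 23495321 to 24297803 (802.5 kb) and from 19838826 to 20612732 (773.9 kb), all in the right part of the arm. Stretches of at least 100 kb numbered 68 and made up 71.1% of the arm outside the windows. In replicate 1 alone the longest gap was 1668 kb, from 14994937 to 16663214. Replicate 2 listed 7 regions in that gap, the widest 2205 bases and the highest score 0.648, so the gap of replicate 1 was interrupted by narrow regions found in 1 library. The longest gap of replicate 2 was 875.3 kb, from 23495321 to 24370655, with 1 replicate 1 region inside.

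The arm began with narrow regions that the libraries did not share. The first region lay from 103669 to 105139 in replicate 1 (score 0.414) and from 69761 to 71345 in replicate 2 (score 0.497), and neither was found in the other list. The right end was the reverse, with the terminal region of the highest score found in both.

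Agreement between the libraries depended on width. Of the 278 replicate 1 regions, 175 shared at least 1 base with a replicate 2 region (62.9%, exact Clopper-Pearson 95% interval 57.0 to 68.6%), against 64.7% of all regions in the replicate 1 list. Of the 304 replicate 2 regions, 183 were found in replicate 1 (60.2%, 54.5 to 65.7%), against 60.7% of all regions in that list. Both shares lay near those of the whole lists and are no result about this arm. An overlap of 50% of both regions was met by 44.6% and 40.8%, against 43.5% and 36.8% in the whole lists. The intervals cover counting error alone, and regions that lie side by side are not independent.

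Every broad region, 10 kb or wider, had a counterpart, 47 of 47 in replicate 1 and 48 of 48 in replicate 2 (lower limits of the exact intervals 92.5% and 92.6%), and the counterparts covered 95.8% and 97.1% of their bases. In the middle class, from 2 kb up to 10 kb, replicate 1 had counterparts for 81 of 94 regions (86.2%, 77.5 to 92.4%) and replicate 2 for 88 of 100 (88.0%, 80.0 to 93.6%). Narrow regions, under 2 kb, had them in 47 of 137 cases (34.3%, 26.4 to 42.9%) and in 47 of 156 cases (30.1%, 23.0 to 38.0%). The rest of the lists gave 100.0% in both for the broad class, 84.1% and 84.3% for the middle class, and 34.4% and 32.2% for the narrow one. These shares lay inside the intervals of the 3R regions in every class.

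**Figure D4:**
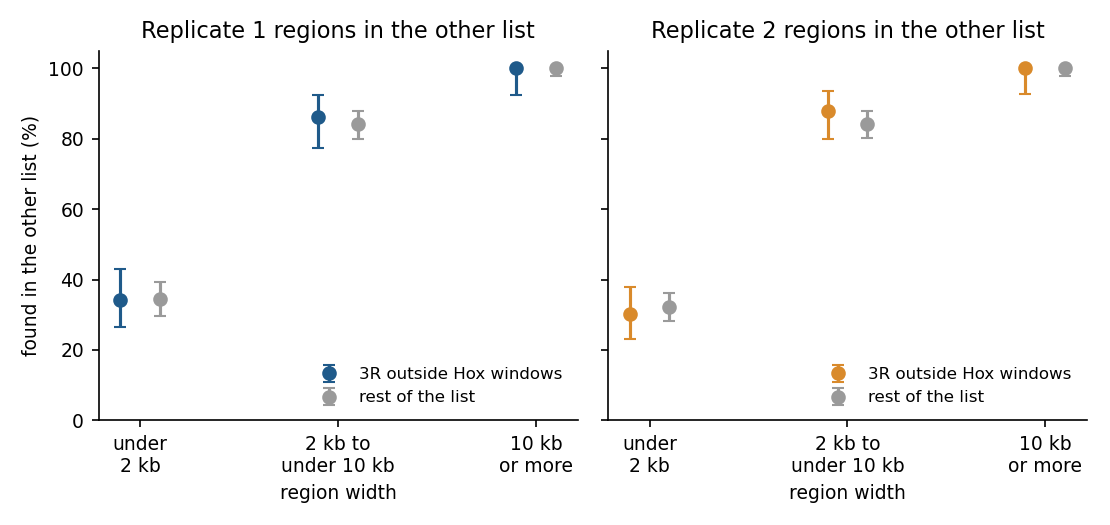
Share of regions found in the other list by at least 1 base (vertical axis, %) by width class, replicate 1 on the left and replicate 2 on the right. Coloured points are 3R regions outside the Hox windows and grey points the rest of the same list, with exact 95% intervals; about 1 in 3 narrow regions and every broad region were found.

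By covered bases the libraries were closer. Of the bases outside the windows, 83.6% in replicate 1 and 83.6% in replicate 2 were also covered by the other library, 1.57 Mb in all, and the Jaccard index was 71.8%. Inside the Hox windows it was 94.4%. On the other large arms it ran from 65.1% (3L) to 70.7% (2R). Several regions of the opposite list faced a single region in 37 cases in replicate 1 and in 36 cases in replicate 2.

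Regions that corresponded one to one had similar scores and borders. There were 93 such pairs, against 175 replicate 1 regions with a counterpart. Regions that the other library divided or joined differently are left out by definition. Across them Spearman's rho of the scores was 0.84 and Pearson's r was 0.95, and without the terminal region, the highest pair, they were 0.83 and 0.92. All pairs come from the same 2 libraries, so these values are descriptions. In the 19 pairs of 10 kb or more rho was 0.93, in the 47 pairs of the middle class it was 0.80, and in the 27 pairs under 2 kb it was 0.19, with classes set by the width in replicate 1. In the rest of the lists the same classes gave 0.89, 0.75 and 0.50, over 53, 155 and 84 pairs. With classes set by the width in replicate 2, which was chosen after seeing the values, rho on 3R was 0.87, 0.74 and 0.31 from the broad to the narrow class.

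Which library had the higher score in a pair was counted in the same classes. Replicate 2 had the higher score in 25 of the 27 pairs that were under 2 kb in replicate 1, with a median difference (replicate 2 minus replicate 1) of 0.081. In 8 of these pairs the replicate 2 region was 2 kb or wider. Width and score go together, so setting the class by replicate 1 in itself favours lower replicate 1 scores among narrow pairs. Of the 24 pairs under 2 kb in replicate 2, that library was higher in 19, with a median difference of 0.039. In the 19 pairs of 10 kb or more, replicate 1 was higher in 13, and the median difference was -0.014. In the rest of the lists, replicate 2 was higher in 74 of 84 narrow pairs by replicate 1 width and in 65 of 97 by replicate 2 width, and replicate 1 was higher in 33 of 53 broad pairs by its own width. Whether the scores of the lists share a scale is not stated.

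Borders of the one-to-one pairs lay close together, in a set chosen for matching division that holds 19 of the 47 broad replicate 1 regions. The median offset was 328 bases for starts and 532 bases for ends, and 100 of 186 borders lay within 500 bases. The largest offset was 4.16 kb. The median offset was 423.5, 386.5 and 550.0 bases from the narrow to the broad class. Set against the width, that left a median Jaccard index of 96.0% in broad pairs and 61.3% in narrow ones. In the rest of the lists the median offset was 461.5 bases.

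**Figure D5:**
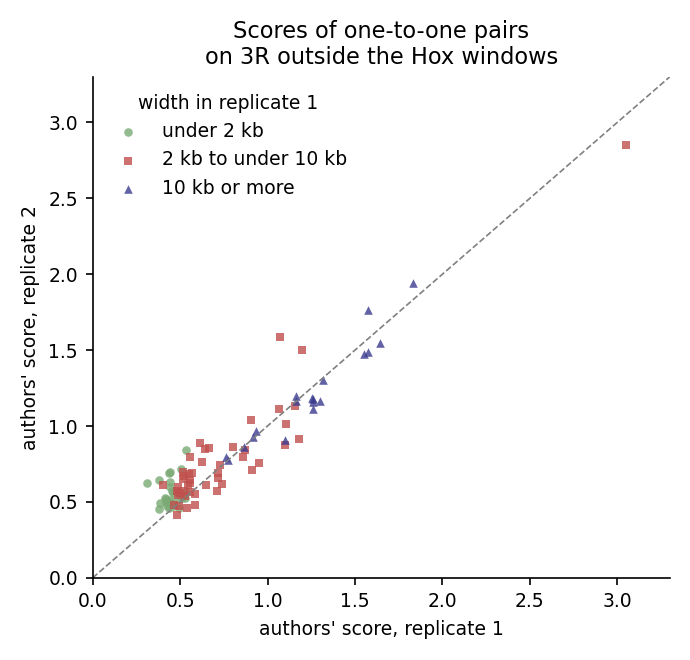
Authors' score in replicate 1 (horizontal axis) and replicate 2 (vertical axis) for the 93 one-to-one pairs on 3R outside the Hox windows; the dashed line marks equal scores. Broad regions follow the line, and 25 of the 27 pairs under 2 kb in replicate 1 lie above it.

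Regions found in 1 list only were narrow and low in score. There were 103 of them in replicate 1, with 8.91% of its covered bases, and 121 in replicate 2, with 10.6%. Their median width was 1523 and 1477 bases, against 4062 and 3222 bases for the shared regions, and their median score was 0.459 and 0.529, against 0.591 and 0.648. Wider regions are overlapped more easily, so part of this difference is built in. No single-list region scored above 0.633 in replicate 1 or 0.858 in replicate 2. Their distance to the nearest region of the other list varied, with a median of 5.92 kb in replicate 1 and 14.2 kb in replicate 2. It was under 5 kb for 49 of the 103 and 37 of the 121, and 50 kb or more for 24 and 43. A block that also held regions of the other list contained 55 of the 103 and 39 of the 121.

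By rule the 5 highest-scoring and 5 widest single-list regions of each library are named. In replicate 1 the highest score, 0.633, belonged to the region from 11683885 to 11685188, 125.3 kb from any replicate 2 region. The next scored 0.616 (6208068 to 6209368), 0.593 (26053169 to 26055409), 0.584 (9629661 to 9631847) and 0.572 (12185856 to 12188187). The widest measured 3.24 kb (12346843 to 12350078), followed by 2.69 kb (6315121 to 6317808), 2.68 kb (6338688 to 6341368), 2.47 kb (6411432 to 6413902) and 2.33 kb for the region at 12185856. Of these widest ones, those at 6338688 and 6411432 lay in the broken 162.0 kb block. The one at 6315121 lay in a separate block to the left of it, from 6304623 to 6325819.

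In replicate 2 the highest scores were 0.858 (27403601 to 27405198), 0.841 (23493942 to 23495320), 0.816 (11239194 to 11240663), 0.766 (3130008 to 3131657) and 0.726 (19658834 to 19662026). The region at 23493942 lay alone, 350.9 kb from any replicate 1 region, while those at 3130008 and 19658834 lay 24 bases and 351 bases from one. The widest measured 4.31 kb (21903666 to 21907973), 3.25 kb (4150317 to 4153565), 3.19 kb for the region at 19658834, 2.89 kb (26641884 to 26644773) and 2.86 kb (6408433 to 6411294). The top single-list regions of replicate 2 thus included both isolated regions and neighbours of replicate 1 regions.

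Blocks of more than 1 region that only 1 library showed were few. Replicate 1 had 0 and replicate 2 had 3, from 859896 to 872093 (12.2 kb, 4 regions, highest score 0.575), from 8119532 to 8128243 (8.71 kb, 2 regions, 0.677) and from 21901173 to 21907973 (6.80 kb, 2 regions, 0.550). The other single-list blocks, 48 in replicate 1 and 74 in replicate 2, were 1 region each.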

How the data were processed

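The submitters' processing notes name Bowtie 0.12.7. Positions are on FlyBase r5 per the file headers. The authors deposited 1 list per ChIP library with a score per region, and its caller, threshold and scale were not given in the sources used. Source names and file names of the ChIP samples carry crossed experiment numbers. Files were assigned as recorded, and a swap would only exchange the replicate names.

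Regions were chosen by position on 3R, compared at an overlap of at least 1 base and joined under 5 kb, with Python 3.11.15, numpy 2.4.6, scipy 1.17.1 and matplotlib 3.10.9. A gap across a Hox window was left out. The interval functions were tested on simulated lists. Named were the 12 widest blocks, the 10 highest-scoring replicate 1 regions found in both lists, the 5 highest-scoring and 5 widest single-list regions, the 3 longest empty stretches, the first and last regions, and single-list blocks of 2 or more regions. Members, width classes, the joining distance and lists were chosen with earlier results of these data known. Sequences, motifs and genes of the regions were not analysed here.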

Additional observations from a re-analysis of the deposited data

How the results depend on the processing

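With an overlap of 50% of both regions, the share found in the other list was 44.6% in replicate 1 and 40.8% in replicate 2; at 50% of the shorter region it was 56.8% and 53.6%. The upper 50% by score was taken from each whole list, over all sequences, and left 117 of the 278 and 126 of the 304 members. Compared with the upper 50% of the other list alone, these had shares of 76.9% and 71.4% and a Jaccard index of 79.4%. They formed 89 and 94 blocks. Widening the Hox windows by 50 kb on each side gave a Jaccard index of 72.0% and a covered share in replicate 2 of 6.919%, against 6.923%. Joining under 50 kb gave 85 and 96 blocks, and 114 from both lists together. Merging regions under 1 kb apart set the median distance to the nearest region at 5.16 kb and 7.04 kb, since the shortest gaps are removed. Without either replicate the blocks numbered 147 to 183, against 220 from both lists. No paired analysis was possible because the inputs had no values. A region absent from 1 list may have been unenriched or under the threshold, which unknown depth leaves undecided.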

Other observations

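Many of the short gaps that cut blocks into regions were not shared by the libraries. Between neighbouring regions under 5 kb apart, replicate 1 had 131 gaps outside the Hox windows, with a median of 1124 bases. Replicate 2 covered 38 of them (29.0%) from end to end, covered 41 in part and had no region in 52 (39.7%). Of the 121 such gaps in replicate 2, with a median of 1046 bases, replicate 1 covered 46 (38.0%) from end to end, covered 47 in part and had no region in 28 (23.1%). Gaps that the other library bridged had median lengths of 435 and 593 bases, against 1074.5 and 1535.5 bases for those without a region in it. A shorter gap is more easily covered from end to end, so part of this difference may be built in.

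Among the 55 blocks of at least 10 kb with regions of both libraries, 18 had a Jaccard index of at least 90% and 10 had one under 50%, with a median of 76.9%. Blocks from 14832814 to 14844471 and from 26539840 to 26551173 held regions of both libraries that did not overlap at all, with scores from 0.440 to 0.517. A block from 26675344 to 26692292 held 6 regions in replicate 1 and 2 in replicate 2, with 2.60 kb covered in both and a Jaccard index of 21.2%.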
